A study of Mus musculus with 12 samples.

Results

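Ribosome occupancy is the number of ribosome-protected footprints (RPF) that a gene yields per unit of its RNA. It was compared, gene by gene, between embryonic mouse hearts lacking Ddx3x in their cardiomyocytes and control hearts. The genes taken were those with a count in each of the 6 heart pools for both assays, 17165 of the 21783 listed. Of these, 15231 passed the low-count filter in both assays and were tested, and 1934 did not pass it. The other 4618 had a blank in at least 1 pool and were left out.

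CM-KO hearts (written Ddx3x CM-CM- by the submitters) came from female embryos at embryonic day 10.5 in which floxed Ddx3x had been deleted with Tnnt2-Cre, a recombinase under a promoter of cardiomyocytes. WT hearts came from female embryos of the same day with the floxed alleles (Ddx3x fl/fl). Each genotype was sampled as 3 pools of 20 hearts, and each pool gave an RNA library and an RPF library, 12 libraries in all. The hearts were sequenced whole, so the endothelial, epicardial, mesenchymal and blood cells of CM-KO hearts, which the promoter does not target, were measured with the cardiomyocytes.

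DDX3X is an X-linked DEAD-box helicase that unwinds RNA. During initiation, the small ribosomal subunit scans the 5′ untranslated region (5′ UTR) of an mRNA for the start codon, and helicases open the folds in its way. GC-rich 5′ UTRs fold more stably than AT-rich ones, and mRNAs with such leaders are the ones for which a need of DDX3X has been described. In ribosome profiling, RNase I digests the RNA that no ribosome covers, and the protected fragments are sequenced. A gene whose RNA goes up while its footprints stay level has fewer footprints per RNA.

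The RNA libraries held 14664490 to 19894090 counts and the RPF libraries 7314972 to 14343750, which gave a median half-width of 0.35 for the 95% interval of a log2 occupancy change. Ddx3x itself, the deleted gene, had a log2 ratio of footprints to RNA of 1.34, 1.69 and 1.63 in CM-KO pools 1 to 3, against 1.52, 1.58 and 1.27 in WT pools 1 to 3. Its RNA was at 256, 186 and 184 CPM (read counts scaled to library size with TMM factors) in CM-KO pools and 250, 258 and 292 in WT pools, so that CM-KO pool 1 lay within the WT range. The means were 209 ± 41.2 in CM-KO and 267 ± 22.5 in WT (SD, n = 3), a change that missed the threshold (log2 change -0.36, adjusted p = 0.05, edgeR quasi-likelihood test). All 20 cardiomyocyte markers listed were tested and their RNA summed to 22000 to 24760 CPM in CM-KO and 20178 to 22857 in WT. The 35 erythroid markers summed to 83445 to 106979 CPM of footprints in CM-KO and 51864 to 68857 in WT. Their RNA sums overlapped, at 13262 to 17066 CPM in CM-KO and 9198 to 13561 in WT. The yolk sac and liver gene Afp varied within both genotypes, at 82.4, 17.5 and 183 CPM of RNA in CM-KO pools and 42.2, 220 and 287 in WT pools. CM-KO pools 1 and 2, and at a low level CM-KO pool 3, also held RNA of Y-linked genes. CM-KO pool 1 stood apart in its ratios. Over 10989 genes, deviations of its log2 ratios from the 6-pool mean correlated by -0.53 and -0.40 with those of CM-KO pools 2 and 3, against 0.49 between CM-KO pools 2 and 3. These are descriptions across genes of libraries that share a mean. With the Afp RNA level as a covariate, 131 genes were lower and 8 higher in occupancy, against 219 and 7 without it. The part of blood RNA in the results below was not tested, and Y-linked RNA only by fits without some of the CM-KO pools.

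Among the genes called, loss of footprints per RNA was the common change in CM-KO hearts. Changes are relative to the other genes, because TMM scaling places the typical gene near 0. A shift of footprints per RNA shared by all genes would not be seen. Of 15231 genes, 226 differed in occupancy at an adjusted p under 0.05 (1.48%; edgeR quasi-likelihood F-test, genotype by assay term, pool as a block). Occupancy was lower in CM-KO for 219 of them (1.44%) and higher for 7 (0.046%). A log2 change of at least 1 was reached by 29 of the lower genes (0.19%) and by 1 of the higher genes (0.00657%). All 219 genes with lower occupancy were protein coding, and in all 219 the 3 CM-KO ratios lay below the 3 WT ratios. Such a gap was found for 1257 of all genes tested (8.25%), and the reverse gap for 584 (3.83%). The calls and the gaps come from the same libraries, so the gap adds no support to a call. The changes of the 219 ran from -2.16 to -0.52 on the log2 scale with a median of -0.72. Their median log2 ratio was -1.16 in CM-KO and -0.36 in WT, where all genes tested had -0.17 and -0.07. The share of lower calls was 96.9%, and 86.3% with upper quartile scaling.

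The lower ratios mostly held more RNA and slightly fewer footprints. Among the 219 genes the RNA value was above 0 for 215 and the footprint value below 0 for 209, with both true of 205. Their median change was 0.46 in RNA and -0.26 in footprints on the log2 scale. Tested alone, RNA rose for 163 of the 219 and fell for none, where 3.92% of all genes tested rose and 1.44% fell. Footprints alone fell for 8 of the 219 and rose for none, where 0.144% of all genes fell and 0.0854% rose. Among these 8 were Ryr2, Entrep1, Pdk1, Lpar3, Homer2 and Abhd17c. The RNA libraries enter both the RNA change and the occupancy change, so neither supports the other. In bulk hearts, fewer cells of a type and less RNA per cell cannot be told apart.

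**Figure D1:**
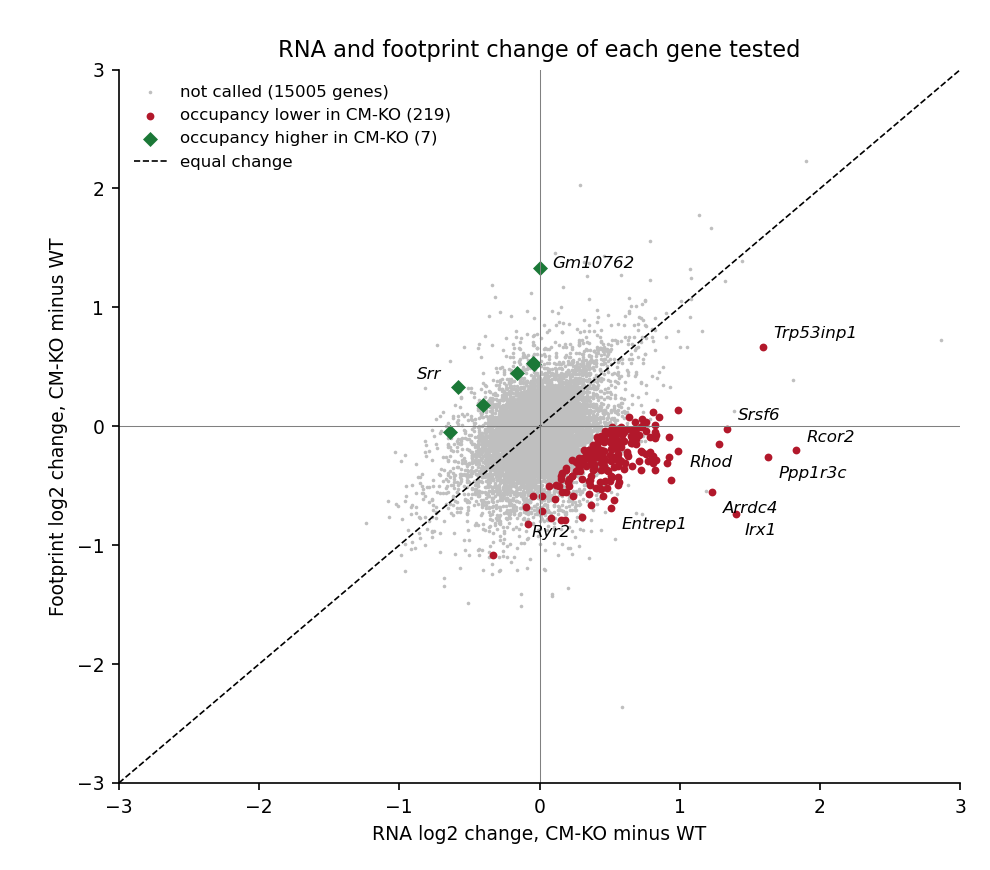
RNA log2 change (x axis) and footprint log2 change (y axis), CM-KO minus WT, for the 15231 genes tested. Red points are the 219 genes with lower occupancy in CM-KO and green diamonds the 7 with higher occupancy, and distance below the dashed line of equal change is loss of footprints per RNA. Most red points lie right of 0 on the RNA axis and a little under 0 on the footprint axis.

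Irx1, Rcor2 and Ppp1r3c lost the most footprints per RNA. Irx1 (chromosome 13, 72106040 to 72111848, GRCm39) encodes an Iroquois homeobox transcription factor of the ventricle. Its RNA stood at 19.3, 25.1 and 22.8 CPM in CM-KO pools 1 to 3, against 8.21, 8.83 and 8.44 in WT pools, and its footprints at 4.70, 6.07 and 4.77 CPM, against 9.24, 7.65 and 9.24. The CM-KO pools were thus high in RNA and low in footprints, with no overlap in either assay. The log2 ratio averaged -2.10 ± 0.12 in CM-KO and 0.03 ± 0.21 in WT (SD, n = 3). Occupancy fell by 2.16 with a standard error of 0.22 (edgeR, adjusted p = 3.55e-08). Rcor2 (chromosome 19, 7241690 to 7252591) encodes a corepressor that binds the demethylase LSD1. Its ratios were -1.93, -2.15 and -1.98 in CM-KO pools and 0.07, 0.14 and -0.16 in WT pools, a change of -2.04 (SE 0.15, adjusted p = 5.28e-12). Ppp1r3c (chromosome 19, 36708523 to 36714070) encodes a subunit that brings protein phosphatase 1 to glycogen. Its RNA was at 178 ± 18.5 CPM in CM-KO and 57.6 ± 6.52 in WT (SD, n = 3), while its footprints were at 62.0 ± 7.10 and 74.6 ± 4.59 CPM. The ratio was lower by -1.90 (SE 0.14, adjusted p = 5.28e-12) and its 3 values within a genotype lay close together, at -1.54, -1.50 and -1.52 in CM-KO and 0.32, 0.48 and 0.33 in WT. All 3 genes kept their calls with any 1 pool left out, and they were the 3 genes called by limma on log2 ratios per pool. DESeq2 gave Irx1 no adjusted p.

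Further down the order came genes of varied function. Arrdc4, an arrestin that limits glucose uptake, had ratios of -2.49, -2.73 and -3.08 in CM-KO pools and -1.01, -0.65 and -1.29 in WT pools (change -1.79, adjusted p = 2.28e-07). Rhod, a small GTPase of endosomes, had -0.84 in each CM-KO pool and 0.68, 0.88 and 0.20 in WT pools (change -1.43, adjusted p = 3.09e-06). Bmt2, also known as Samtor, senses S-adenosylmethionine for mTORC1 and fell by 1.40 (adjusted p = 6.24e-08). Srsf6, a splicing factor of the SR family, had 477, 516 and 485 CPM of RNA in CM-KO pools and 175, 185 and 224 in WT pools. Its footprints overlapped between the genotypes, at 326, 351 and 324 CPM in CM-KO and 324, 358 and 337 in WT. Its change in occupancy was -1.37 (adjusted p = 1.15e-07), so that the RNA rise was not matched by footprints. The mitochondrial outer-membrane gene Slc25a46 (-1.23), the endosomal gene Entrep1 (-1.20), the small membrane protein gene Smim19 (-1.20) and the NuRD subunit gene Mta1 (-1.18) followed, with adjusted p from 8.98e-07 to 6.29e-05. The lung-type cytochrome oxidase subunit gene Cox4i2 had a change of -1.22 (adjusted p = 0.00771) that no longer passed without CM-KO pool 3 (-0.88, 0.328) or WT pool 3 (-0.94, adjusted p = 0.163).

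The bases before the start codons of these genes are printed because the median 5′ UTR GC content was higher among the lower genes than among all genes tested. Each window holds the last 27 bases of the 5′ UTR in lower case and the start codon in capitals (GENCODE release 39 for mouse, GRCm39). The start codons lie at chr13:72111605-72111607 (Irx1, minus strand), chr19:7246327-7246329 (Rcor2, plus), chr19:36713964-36713966 (Ppp1r3c, minus), chr7:68398812-68398814 (Arrdc4, minus), chr19:4489377-4489379 (Rhod, minus), chr6:13677830-13677832 (Bmt2, minus) and chr2:162773591-162773593 (Srsf6, plus), each in exon 1 of the transcript used.
Irx1: ccctccgccaccaccgagcccgcggacATG
Rcor2: tgcccctcggggctgccgggtagggtaATG
Ppp1r3c: tcgcggtcgccgctgcctctcggtccaATG
Arrdc4: ggtggcagagccgcatcgcctggcggaATG
Rhod: ccgcgcaccgccgtccgccagccagggATG
Bmt2: agcggcagcggcggcggcggcagcgctATG
Srsf6: cccggaggacacccgtgggtcacggccATG
The 27 bases were 74.1 to 85.2% G or C in these 7 genes. No value of these 27 bases over all genes is given here, so whether that share is unusual was not tested. Their whole 5′ UTRs were 66.3% (Ppp1r3c) to 85.2% GC (Rhod), where the median of all genes tested was 64.7%.

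For comparison, 4 of the 7 genes with higher occupancy have an annotated ATG start in the transcript used, at chr11:74803953-74803955 (Srr, minus strand, exon 2), chr10:95336309-95336311 (Mrpl42, minus, exon 2), chr3:96176010-96176012 (H3c13, plus, exon 1) and chr4:3835484-3835486 (Rps20, minus, exon 1).
Srr: aggcgcagcgctctggaggcgagaaccATG
Mrpl42: gttttttcaaatcacttgctaaggatcATG
H3c13: gcgtctgcaagccgaagtcgcaaaaatATG
Rps20: agtcggtcaggaagccgcgcctcagccATG
These windows were 70.4%, 33.3%, 51.9% and 70.4% GC in that order, so that Srr and Rps20 came close to the lower genes and the other pair did not.

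**Figure D2:**
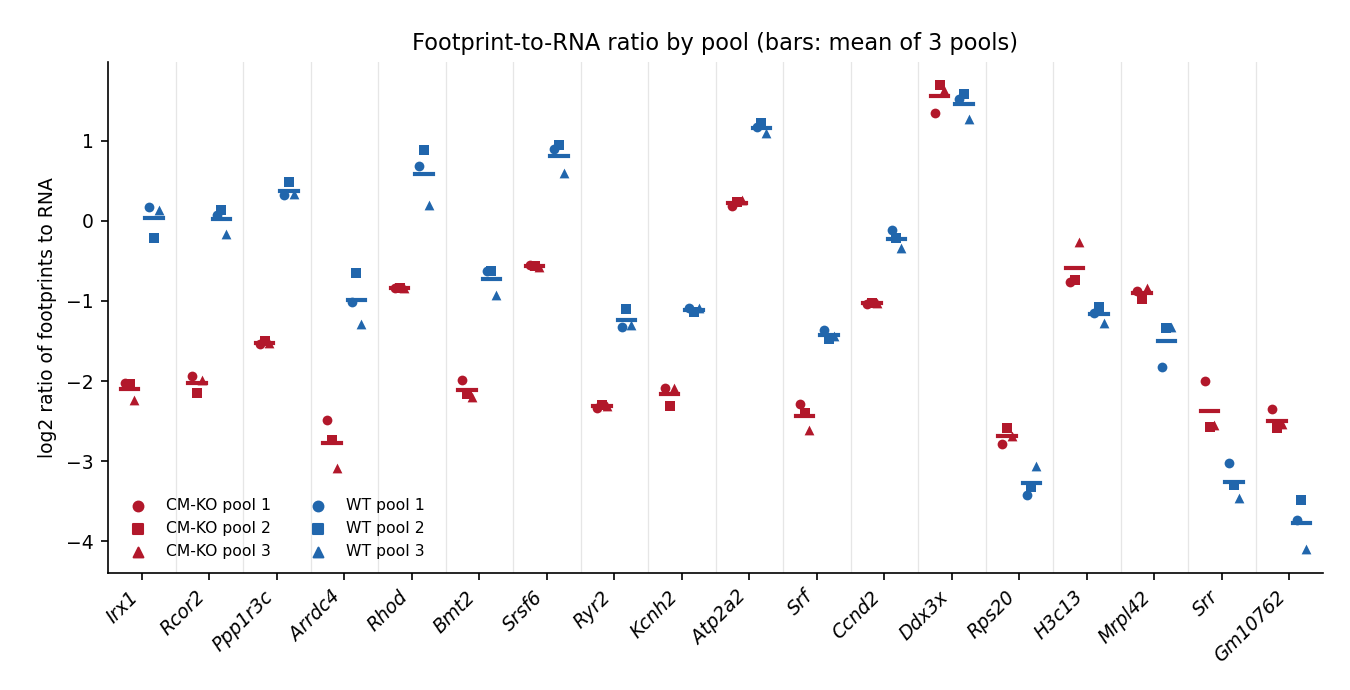
Log2 ratio of footprints to RNA (y axis) in each pool for 18 genes, with CM-KO in red left of WT in blue, a marker shape for each pool number and a bar at the mean of 3 pools. The genes from Irx1 to Ccnd2 have all CM-KO pools below all WT pools, Ddx3x overlaps, and the genes from Rps20 to Gm10762 have all CM-KO pools above all WT pools.

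Among transcription factors of the heart, occupancy was lower for 3 Iroquois genes and for Srf and Nkx2-5. The gene lists here and below were drawn up with earlier results of these data known. Their shares of calls are descriptions and give no separate test of a class. Of 6 Iroquois genes tested, 3 fell (Irx1, Irx4 and Irx3) and none rose, where 1.44% of all genes tested fell. The median change of the 6 was -0.77, against -0.01 over all genes tested. Irx4, which marks ventricular cardiomyocytes, had ratios of -0.96, -1.02 and -0.70 in CM-KO pools and 0.09, 0.11 and -0.16 in WT pools (change -0.90, adjusted p = 0.000201). Irx3, a factor of the ventricular conduction system, fell by 0.81 (adjusted p = 0.0357) and lost its call without CM-KO pool 2 (adjusted p = 0.241), WT pool 1 (0.0698), WT pool 2 (0.0626) or WT pool 3 (0.384). Irx2 had a change of -0.72 that did not pass (adjusted p = 0.185), and Irx5 and Irx6 had 0.10 and 0.17. Counts were low in this family, with a median of 74.2 footprint counts per library. The median deviation of the family's ratios was -0.52, -0.38 and -0.11 in CM-KO pools and 0.35, 0.37 and 0.24 in WT pools, which do not overlap.

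Srf (chromosome 17, 46857767 to 46867119) encodes serum response factor, which drives actin and muscle genes. Its RNA was at 169, 216 and 182 CPM in CM-KO pools and 108, 112 and 126 in WT pools. Its footprints were at 34.7, 40.8 and 29.7 CPM in CM-KO and 42.1, 40.4 and 46.3 in WT, where CM-KO pool 2 overlapped WT pool 2. Its occupancy fell by 1.02 (SE 0.15, adjusted p = 3.5e-05). The cardiac homeobox gene Nkx2-5 fell by 0.73 (adjusted p = 0.00409), a call that ended without WT pool 1 (-0.65, adjusted p = 0.124). Of 40 cardiac transcription factors 5 fell (12.5%, against 1.44% of all genes tested) and none rose. The 1.44% includes genes with few footprints, which were rarely called. Over deciles of footprint count in coding genes, the share that fell ran from 0.0% in the lowest to 2.88% in the sixth. This list had a median footprint count of 414.5, and in that decile 2.81% fell. The list median was -0.02, and 0.10 without CM-KO pool 1. Gata4 (-0.06), Tbx5 (-0.06), Hand1 (-0.07), Mef2c (0.09) and Hand2 (0.30) did not pass, with adjusted p from 0.631 to 0.994. Among 44 homeobox genes 6 fell. Besides those named these were Prrx2, a gene of cushion mesenchyme (-0.99, adjusted p = 5.39e-05), and Pbx2, a homeobox cofactor (-0.56, adjusted p = 0.028).

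Among 47 genes of excitation and calcium handling, 5 fell (10.6%, against 1.44% of all genes tested) and none rose. The list had a median footprint count of 646.3, and in that decile of footprint count 2.23% of coding genes fell. The list median was -0.13, and 35 of the 47 values were below 0, as were 52.4% of the values of all genes tested. Ryr2 (chromosome 13, 11567988 to 12121870) encodes the channel through which stored calcium leaves the sarcoplasmic reticulum. Its footprints were at 346, 347 and 287 CPM in CM-KO pools and 527, 563 and 573 in WT pools, while its RNA was at 1730, 1710 and 1430 CPM in CM-KO and 1320, 1200 and 1410 in WT. The footprint difference passed on its own (log2 change -0.76, adjusted p = 0.0206) and the RNA difference did not (0.30, adjusted p = 0.0569). Its occupancy fell by 1.07 (SE 0.15, adjusted p = 1.23e-05), with ratios of -2.33, -2.30 and -2.31 in CM-KO pools and -1.33, -1.10 and -1.30 in WT pools.

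Atp2a2 (chromosome 5, 122591575 to 122640903), the calcium pump that refills the store, had 2010, 2170 and 2030 CPM of footprints in CM-KO pools and 2820, 3160 and 3310 in WT pools. Its occupancy fell by 0.94 (adjusted p = 0.000147). Kcnh2, the potassium channel of the rapid repolarizing current, had ratios of -2.08, -2.31 and -2.08 in CM-KO pools and -1.09, -1.14 and -1.09 in WT pools, and fell by 1.05 (adjusted p = 1.23e-05). Examples of members with AT-richer leaders, whose values were above 0 and did not pass, were Pln, the inhibitor of the calcium pump (0.42, 5′ UTR GC 40.2%), Gja1, a gap junction gene (0.22, 47.6%), and Kcnj2, an inward rectifier (0.23, 44.8%). The 5′ UTRs of Ryr2, Atp2a2 and Kcnh2 were 77.7 to 80.0% GC. Pln, Gja1 and Kcnj2 were picked after their values were seen, from the 12 of 47 members with values above 0. The other 35 were below 0, and 5 of these were called. The median 5′ UTR GC of the list was 68.6%. A link of GC to occupancy within this list was not tested.

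Relative to all genes tested, the contractile apparatus itself showed little change in occupancy. Of 46 sarcomere genes 1 fell (2.17%, near the 1.44% of all genes tested) and none rose, with a median of 0.05. Ttn, the giant spring of the sarcomere, had ratios of -0.60, -0.36 and -0.50 in CM-KO pools and -0.05, 0.57 and 0.08 in WT pools (change -0.69, adjusted p = 0.0226), a call that ended without any of CM-KO pool 2, CM-KO pool 3, WT pool 2 or WT pool 3 (adjusted p up to 0.557). The myosin and troponin genes Myh6 (-0.02), Myh7 (-0.12), Myl7 (0.10), Tnnt2 (0.21) and Tnni3 (0.21) did not pass. Across the 20 cardiomyocyte markers 4 fell (20.0%), namely Ryr2, Atp2a2, Nkx2-5 and Ttn, and the median was 0.03.

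Among 27 genes of glucose and glycogen use none rose, and the median was -0.11. The list was drawn up with earlier results of these data known. Its median footprint count was 428.8, and in that decile of footprint count 2.81% of coding genes fell. Of the 27, 3 fell (11.1%, against 1.44% of all genes tested). They were Ppp1r3c, Arrdc4 and Gbe1, the glycogen branching enzyme (-0.68, adjusted p = 0.0041, not called without CM-KO pool 3, adjusted p = 0.128, or WT pool 1, adjusted p = 0.0838). Pdk1, a kinase that holds back pyruvate oxidation, had footprints at 60.3, 59.7 and 65.4 CPM in CM-KO pools and 105, 90.4 and 84.8 in WT pools, and its occupancy fell by 1.04 (adjusted p = 1.09e-05). It was the 1 gene that fell among 39 of glycolysis and the hypoxia response (2.56%, near the share of all genes, median 0.01). Among 28 genes of the CoREST and NuRD corepressor complexes, Rcor2 and Mta1 fell (7.14%) and the median was 0.00. The related Rcor1 (0.01), Rcor3 (-0.10), Mta2 (0.00) and Mta3 (-0.01) did not pass. Among 48 SR and hnRNP splicing factors Srsf6 fell alone (2.08%, near the share of all genes), with a list median of 0.12. No other SR gene passed, as in Srsf1 (0.05), Srsf2 (-0.01) and Srsf3 (0.27).

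For 16 genes tested out of a list of mRNAs reported in other cells as sensitive to DDX3X, 4 fell and none rose, where 1.44% of all genes tested fell, and the median was -0.05. Ccnd2, a D-type cyclin, had ratios of -1.04, -1.02 and -1.03 in CM-KO pools and -0.12, -0.21 and -0.34 in WT pools (change -0.81, adjusted p = 0.00074). Csnk1e, a casein kinase that DDX3X is known to activate, fell by 0.72 (adjusted p = 0.00193), the G1 cyclin gene Ccne1 by 0.64 (adjusted p = 0.00956) and Odc1, the first enzyme of polyamine synthesis, by 0.54 (adjusted p = 0.0429). Each of these 4 calls ended with some pool left out, the adjusted p reaching 0.0588 for Ccnd2, 0.0862 for Csnk1e, 0.328 for Ccne1 and 0.569 for Odc1. CM-KO pool 3 and WT pool 1 were such pools for all 4. The other 12 did not pass, among them Rac1 (-0.18), Dvl1 (-0.08), Cdc42 (0.11), Snai1 (0.15) and Atf5 (0.60).

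Signalling and membrane genes contributed single members. Dvl3, a Wnt scaffold, fell by 0.86 (adjusted p = 0.000218), the laminin receptor subunit gene Itga6 by 0.92 (adjusted p = 9.74e-05), and the AP-1 gene Jund by 1.12 (adjusted p = 9.59e-06). Smad4, the common mediator of TGF-beta and BMP signals, fell by 0.66 (adjusted p = 0.00629, not called without CM-KO pool 3, WT pool 1 or WT pool 2, adjusted p = 0.0811 to 0.119). Gnas, the stimulatory G protein subunit of a complex imprinted locus, had 1290, 1380 and 1260 CPM of footprints in CM-KO pools and 1550, 1600 and 1600 in WT pools. Its RNA was at 1440 ± 124 CPM in CM-KO and 974 ± 24.4 in WT (SD, n = 3). Tested alone with edgeR, the RNA rise passed (0.56, adjusted p = 0.00821) and the footprint change did not (-0.27, adjusted p = 0.32). Its occupancy fell by 0.84 (adjusted p = 0.00054), a call that ended when CM-KO pool 3 was left out (adjusted p = 0.0741). Of 176 genes named Tmem 9 fell (5.11%), with a median of -0.04. Of 267 solute carriers 6 fell (2.25%), near the 1.44% of all genes tested, with a median of -0.06. Among 43 p53 targets 2 fell, with a median of 0.02. Trp53inp1, an inducer of apoptosis and autophagy, had more RNA in CM-KO (77.0 ± 7.68 CPM, against 25.5 ± 1.18 in WT; SD, n = 3) and a footprint value above 0 (22.3 ± 2.63 CPM, against 14.2 ± 0.376), and its occupancy fell by 0.93 (adjusted p = 0.00028). Its 5′ UTR is 53.7% GC. Cdkn1a, the p53-induced inhibitor of cyclin-dependent kinases, did not pass (0.33, adjusted p = 0.608).

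Higher occupancy was called for 7 genes, 5 of them protein coding and 2 long non-coding. Rps20, a protein of the small ribosomal subunit, had 77.5, 87.7 and 77.2 CPM of footprints in CM-KO pools and 51.5, 49.6 and 66.9 in WT pools, with RNA at 520 ± 19.7 CPM in CM-KO and 536 ± 35.7 in WT (SD, n = 3). Its ratio rose by 0.58 (adjusted p = 0.044). Eif4g2, an initiation factor that lacks the cap-binding part of its relatives, had 899, 931 and 825 CPM of footprints in CM-KO pools and 544, 587 and 732 in WT pools and rose by 0.55 (adjusted p = 0.0476). The mitochondrial ribosomal protein gene Mrpl42 (0.60), the replication-dependent histone gene H3c13 (0.59), the serine racemase gene Srr (0.89) and the non-coding transcripts AI506816 (0.55) and Gm10762 (1.33) also rose, at adjusted p values between 0.0188 and 0.0436. Gm10762 rests on 20, 24 and 27 footprint counts in CM-KO pools and 9, 8 and 8 in WT pools. None of the 7 kept its call with every pool left out in turn, with adjusted p reaching 0.198 (Gm10762) to 0.619 (Rps20). No source used here says how reads of ribosomal protein pseudogenes and histone copies were counted, so Rps20 and H3c13 are uncertain.

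Some classes had medians above that of all genes (-0.01) with at most 1 call, and more calls without CM-KO pool 1, where 1.32% of all genes were higher. Higher calls then numbered 13 of 78 cytosolic ribosomal protein genes, 26 of 56 replication-dependent histone genes, 5 of 53 initiation factors and 8 of 35 erythroid markers. The 78 cytosolic ribosomal protein genes had a median of 0.24, with 70 values above 0. Apart from Rps20 none was called, while 23 were higher at an unadjusted p under 0.05 and none was lower (edgeR; DESeq2 called none). Their pool medians were 0.02, 0.15 and 0.15 in CM-KO and -0.24, 0.03 and -0.10 in WT, where CM-KO pool 1 overlapped WT pool 2. The 56 replication-dependent histone genes had a median of 0.20 with 1 call, and 11 were higher at an unadjusted p under 0.05. Their pool medians overlapped widely, at -0.22, 0.13 and 0.40 in CM-KO and 0.04, -0.06 and -0.27 in WT. The 53 translation initiation factors had a median of 0.13 with 1 call. The 35 erythroid markers had a median of 0.22 with none called (4 higher at an unadjusted p under 0.05, edgeR; none by DESeq2), at -0.17, 0.18 and 0.32 in CM-KO pools and -0.07, 0.01 and -0.15 in WT pools.

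The 8 mitochondrially encoded genes tested had the highest class median, 0.63, with all 8 values above 0 and none called (7 higher at an unadjusted p under 0.05, edgeR; 2 called by DESeq2). Without CM-KO pool 1, 5 of the 8 were called higher. These genes are translated inside the organelle by its own ribosomes. The complex I subunit gene mt-Nd2 had 624, 653 and 710 CPM of RNA in CM-KO pools and 1820, 1170 and 1030 in WT pools, against 3310, 2740 and 2630 CPM of footprints in CM-KO and 3480, 3210 and 3480 in WT. Its occupancy value was 0.74 (adjusted p = 0.0599). WT pool 1 had the most mitochondrial RNA, and the pool medians of the class overlapped, at 0.52, 0.28 and 0.03 in CM-KO and -0.60, -0.29 and 0.03 in WT. Genes of mitosis (52, median 0.11), chaperones (55, 0.09) and proteasome subunits (47, 0.09) lay slightly above 0, with 1 call in all, a fall of the small heat shock gene Hspb7 by 0.66 (adjusted p = 0.012) that did not pass without WT pool 1 (0.208), WT pool 2 (0.0781) or WT pool 3 (0.105).

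Classes of weakly expressed genes had medians below 0 that depended on the pools taken. The 1300 long non-coding RNAs had a median of -0.17 and 2 higher calls. Their pool medians were 0.72, -0.71 and -0.25 in CM-KO and 0.21, -0.18 and 0.25 in WT, with CM-KO pool 1 at one end and CM-KO pool 2 at the other. Leaving out CM-KO pool 1 gave a median of -0.57. It was 0.09 when CM-KO pool 2 was left out and 0.03 when CM-KO pool 3 was. The 106 potassium, sodium and calcium channel genes had a median of -0.16, with 3 that fell (among them Kcnh2 and the potassium channel subunit gene Kcng2, whose call ended without CM-KO pool 3 or any WT pool, adjusted p up to 0.438), and their pool medians ran from -0.44 in CM-KO pool 2 to 0.35 in CM-KO pool 1. The 3 that fell were 2.83% of the channel genes, where 1.44% of all genes tested fell. Without CM-KO pool 1 the channel median was -0.42, with 12 lower and none higher. In that fit 4.77% of all genes tested were lower and 1.32% higher. Without CM-KO pool 2 the channel median was -0.00. Both classes had few footprints, with medians of 17.5 and 52.6 counts per library, and footprint depth moved with the ratios of single pools. Genes of the top decile of footprint count, less those of the bottom decile, differed in median log2 ratio by -0.73 in CM-KO pool 1, 0.59 in CM-KO pool 2 and 0.30 in CM-KO pool 3, against -0.17, 0.24 and -0.33 in WT pools.

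**Figure D3:**
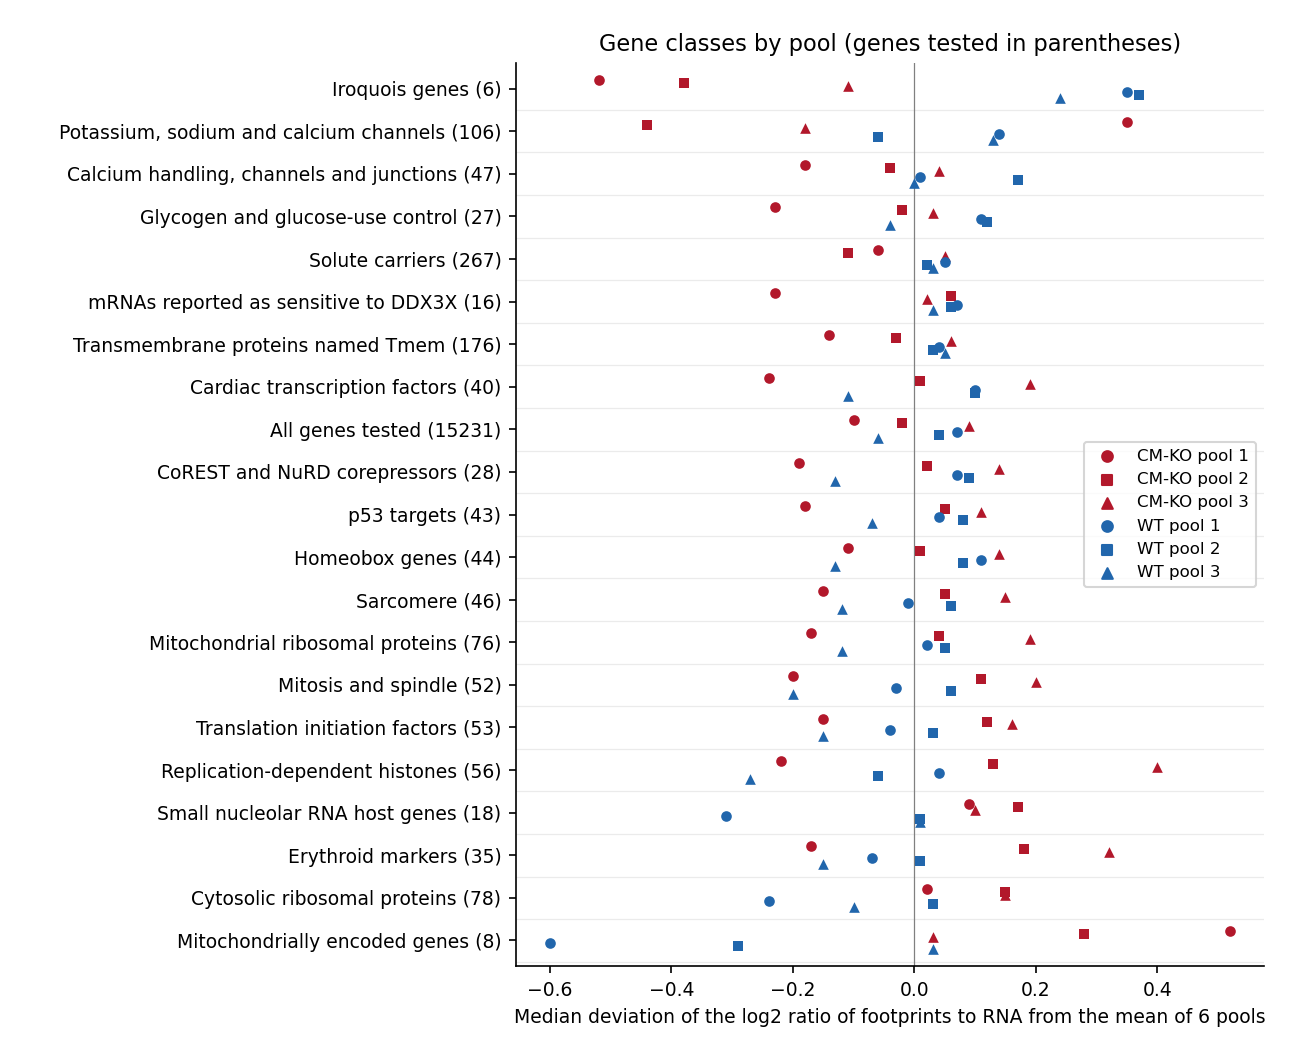
Median deviation of the log2 ratio of footprints to RNA from the mean of the 6 pools (x axis) for 21 gene classes (rows, genes tested in parentheses), with CM-KO pools in red above WT pools in blue and a marker shape for each pool number. The Iroquois genes show CM-KO pools at -0.52 to -0.11 and WT pools at 0.24 to 0.37, whereas most classes overlap between the genotypes, and CM-KO pool 1 lies at the low end of many of them.

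The genes with lower occupancy had a higher median 5′ UTR GC content than all genes tested, though single genes lay below the median of all genes. Among the 218 with a 5′ UTR of at least 20 bases its median GC was 74.1%, against 64.7% over all 13618 such genes. Ranked by 5′ UTR GC, 2 of the 1362 genes in the bottom decile (30.1 to 52.1% GC) had lower occupancy, which is 0.147%. In the top decile (76.7 to 93.3% GC) it was 73 of 1361, or 5.36%, and in the ninth 47 of 1362, or 3.45%. The background over all genes tested was 1.44%. The median occupancy change, with no threshold, was 0.04 in the bottom decile, 0.03 in the fifth and -0.15 in the top decile. The top decile had a median of 0.08 in RNA and -0.06 in footprints, and the bottom decile -0.06 and -0.01.

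The genotypes also separated when the pools were taken one at a time. The median log2 deviation of the top decile minus that of the bottom decile was -0.19, -0.07 and -0.07 in CM-KO pools and 0.13, 0.13 and 0.06 in WT pools, so the genotypes did not overlap. With 3 pools against 3, an exact two-sided permutation test of such a value cannot give a p under 0.1. In RNA alone the same difference was 0.10, 0.13 and 0.01 in CM-KO pools and -0.18, -0.11 and 0.00 in WT pools, and in footprints alone -0.12, 0.08 and -0.07 in CM-KO and -0.05, 0.04 and 0.06 in WT, where the genotypes overlapped. The difference of the fitted changes was -0.19, and -0.16 without CM-KO pool 1. With the longest annotated 5′ UTR of each gene in place of the selected one it was -0.17.

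**Figure D4:**
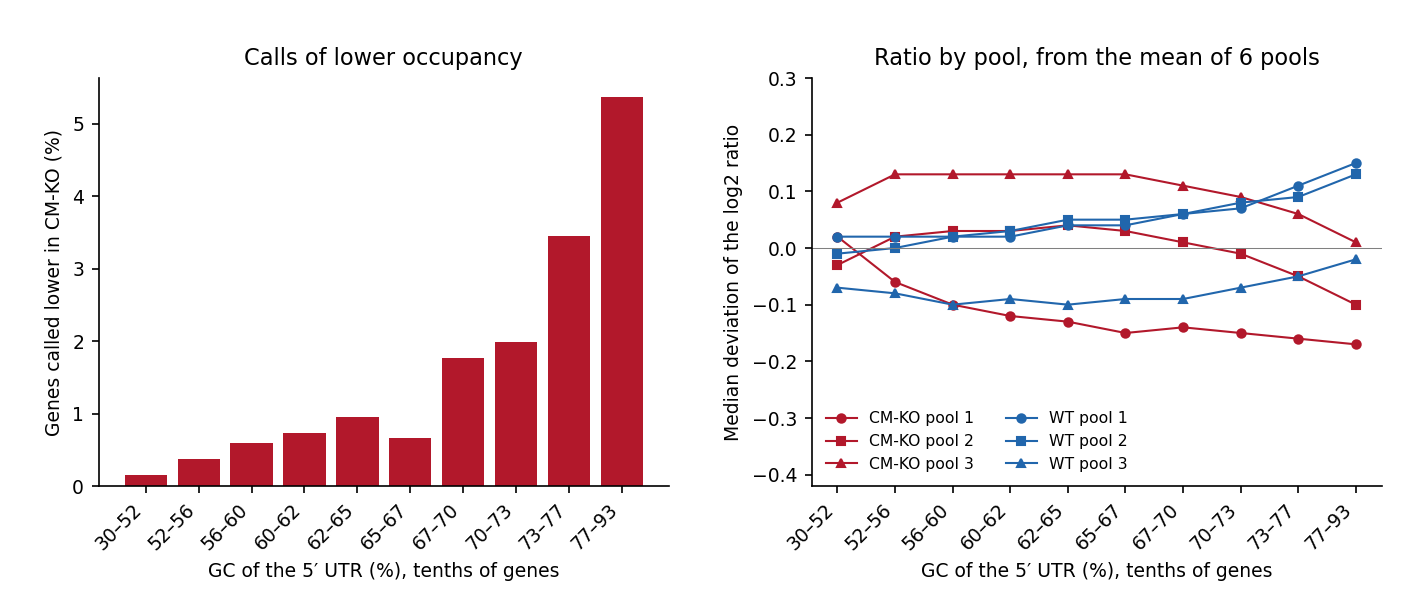
Left, share of genes called lower in CM-KO (y axis, percent) in each decile of 5′ UTR GC (x axis, range in percent). Right, median deviation of the log2 ratio from the 6-pool mean in the same deciles for each pool, CM-KO in red and WT in blue. The share is 0.147% in the lowest decile and 5.36% in the highest, and in the highest deciles the CM-KO lines bend down while the WT lines bend up.

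The gradient was also seen within tertiles of footprint depth, coding-sequence GC and 5′ UTR length. Within the tertile of genes with the fewest footprints, the top decile of 5′ UTR GC had a median change of -0.18 and the bottom decile -0.05. In the tertile with the most footprints these were -0.13 and 0.11, with 30 of 484 genes (6.2%) lower in the top decile and 1 of 303 (0.33%) in the bottom decile. Within tertiles of coding-sequence GC, 4.63 to 5.9% of the top decile were lower and at most 0.258% of the bottom decile. Within tertiles of 5′ UTR length the shares were 4.06 to 6.53% in the top decile and at most 0.227% in the bottom decile.

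Predicted folding gave a similar order. The last 100 bases before the start codon, folded with RNAfold, had a median energy of -44.6 kcal/mol in the genes with lower occupancy and -33.5 over all. Of the 1161 genes with the most stable folds 64 (5.51%) had lower occupancy, and of the 1161 with the least stable 8 (0.689%). The difference between the top (least stable) and bottom decile was 0.09, 0.09 and 0.08 in CM-KO pools and -0.11, -0.08 and -0.06 in WT pools. GC content and folding energy measure overlapping properties of the same bases. Coding-sequence GC separated the groups less, with a median of 54.6% in the lower genes and 52.9% over all, and its gradient overlapped between the genotypes (-0.10, -0.12 and 0.03 in CM-KO pools, 0.17, -0.09 and 0.10 in WT pools). The median 5′ UTR length was 268 bases in the lower genes and 244 over all. Its gradient also separated the genotypes, at -0.02, -0.07 and -0.06 in CM-KO pools and 0.08, 0.03 and 0.02 in WT pools. So did that of coding-sequence length, at -0.03, -0.07 and -0.07 in CM-KO pools and 0.08, 0.04 and 0.03 in WT pools. Lower calls made up 0.647% of the decile with the shortest 5′ UTRs and 0.936% of that with the longest. For coding-sequence length these shares were 1.15% and 0.648%. Genes without an ATG in the 5′ UTR were lower in 100 of 5029 cases (1.99%), and those with 4 or more in 25 of 2441 (1.02%). These groups also differed in 5′ UTR GC, with medians of 67.4 and 58.4%.

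Most genes with a GC-rich leader were not called, as the count of 73 among 1361 in the top decile shows. Rcor1 (78.6% GC, change 0.01), the histone deacetylase gene Hdac1 (79.8%, 0.18), the initiation factor gene Eif4h (78.1%, 0.13) and the retinoic acid synthesis gene Aldh1a2 (76.0%, 0.25) did not pass. In the other direction, Ttn (48.9%), Trp53inp1 (53.7%) and Ccnd2 (56.8%) had lower occupancy with 5′ UTRs below the median GC.

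The calls depended on the pools taken. Without CM-KO pool 1, 726 genes were lower (4.77%) and 201 higher (1.32%), and all 219 were among the 726. With another pool left out, 87 to 188 were lower and 0 to 13 higher. With CM-KO pools 1 and 2, which had the most Y-linked RNA, both left out, the median change over all genes was 0.02. In that fit the single remaining CM-KO pool is assumed to vary like the other pools. It also held Y-linked RNA, at a low level. A total of 67 genes, all lower, were called with each pool left out in turn, with changes of -2.16 to -0.74 and a median 5′ UTR GC of 76.1%. The authors' deposited table lists 310 occupancy changes at an adjusted p under 0.05, 296 lower and 14 higher. Of these 190 were called here with the same sign, which is 84.1% of the calls here and 61.3% of those in the authors' deposited table. At the threshold, Ncbp2as2 (-0.59, adjusted p = 0.0476) and Cdc34 (-0.54, adjusted p = 0.049) were just inside, and Bax (-0.55, adjusted p = 0.0513) and Gorasp2 (-0.53, adjusted p = 0.0513) just outside.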

How the data were processed

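RNA and footprint libraries of 6 heart pools were counted by the authors with the EclipseBio pipeline (v1) against mm39, per the labels. No source used here gives the strand setting, aligner or annotation, so overlapping, antisense and near-identical genes are uncertain. Their values were deposited as whole read counts, one row for each gene, and a value is blank where both counts of a pool are under 11. The authors also deposited RPM values, which served to check library totals, occupancy ratios (ratio of footprint to RNA coverage), which were not tested here, and log2 fold changes with adjusted p-values, used only where the authors' deposited table is named.

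Counts were tested with edgeR 4.0.16 in R 4.3.3 (quasi-likelihood, robust, TMM over the 12 libraries, minimum count 10 and minimum total 15 in both assays), with pool, assay and the genotype effect on footprints as terms and Benjamini-Hochberg adjustment over 15231 genes. RNA and footprints alone were tested 3 against 3 on the same genes. CPM values are TMM-scaled, and log2 ratios per pool use a prior count of 1. Both libraries of a pool come from the same hearts, per the labels, so the pool is a block. The deviations of same-pool RNA and footprint libraries correlated by -0.24 to 0.45 in CM-KO and 0.03 to 0.67 in WT. Those of different pools of a genotype correlated by -0.61 to 0.35 in CM-KO and -0.63 to 0.38 in WT. RNA of CM-KO pool 1 had -0.24 with its own footprints and 0.35 with those of CM-KO pool 2. The pairing thus rests on the labels, and these values do not bear it out for every pool. Pools of a genotype differed beyond sampling noise (chi-square per degree of freedom 3.34 to 16.19). Intervals and p-values rest on the spread between 3 pools of each genotype, with each gene's variance drawn toward a trend shared across genes. They do not measure the pool spread of a single gene alone. Ppp1r3c had ratio SDs of 0.02 in CM-KO and 0.09 in WT with a standard error of 0.14. For Cox4i2 the SDs were 0.40 and 0.50 and the standard error 0.27. 5′ UTRs came from GENCODE release 39 (21594 of 21783 genes matched) and were folded with RNAfold (ViennaRNA 2.7.2). Alternatives used DESeq2 1.42.0 and limma 3.58.1.

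Members and gene lists were chosen with earlier results of these data known. Named genes were the 12 most changed in each direction among called genes with separate ratios, up to 4 called members of each list (or the largest change where none was called), the 8 called genes with the most footprints, and Ddx3x, Tnnt2, Rmrp, H19 and Afp. Other members given beside a list were chosen after their values were seen. Some genes are not reported here.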

Additional observations from a re-analysis of the deposited data

Results flagged for a closer look

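Y-linked RNA was present in CM-KO pools labelled female. RNA counts of Uty were 174 in CM-KO pool 1, 108 in CM-KO pool 2 and 11 in CM-KO pool 3, with blanks in the 3 WT pools, where a blank hides at most 10 counts. For Ddx3y, which is the Y paralogue of Ddx3x, RNA counts were 106, 64 and 4 in CM-KO and 2, 2 and 0 in WT pools, and 69, 75 and 24 footprint counts in CM-KO pools against 15, 21 and 19 in WT pools. Reads of such near-identical copies can be exchanged with those of Ddx3x. Kdm5d and Eif2s3y each had 86 RNA counts in CM-KO pool 1, with 39 and 53 in CM-KO pool 2. A fit without CM-KO pools 1 and 2 is not free of Y-linked RNA, because CM-KO pool 3 held it at a low level. The part of these reads in single genes was not tested.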

How the results depend on the processing

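None of the 69 named genes that were called changed direction in an alternative. They had been picked by their calls and the alternatives refit the same counts, so a kept direction says little. Of the 69, 29 kept their call with every pool left out in turn. Calls were kept for 34 without WT pool 1, 32 with DESeq2 size factors and 3 with limma on log2 ratios per pool. The Hox clusters had no gene left at a mean count of at least 50. The main test called 226 genes (219 lower, 7 higher). Called, lower and higher genes were 139, 131 and 8 with Afp RNA as a covariate, 125, 122 and 3 with DESeq2, 81, 79 and 2 with DESeq2 size factors, 376, 351 and 25 with TMM within each assay, 591, 498 and 93 with a mean count of at least 50, 451, 389 and 62 with upper quartile scaling, 181, 179 and 2 with a fit that is not robust, and 243, 192 and 51 without CM-KO pools 1 and 2. With no replicate block on the pool, 128 were called, 127 lower and 1 higher, and 127 were shared with the main test. On log2 ratios per pool, limma called 3, all lower with a log2 change of at least 1, and 0 higher, with 733 lower and 237 higher at an unadjusted p under 0.05. After seeing that count, limma-voom with the pool as a block was added and called 229 (223 lower, 6 higher). With each pool left out, 92 to 927 were called, 87 to 726 lower, 0 to 201 higher and 21 to 183 lower by at least 1. The highest of these came without CM-KO pool 1. The count of 0 higher came without WT pool 2, with 265 higher at an unadjusted p under 0.05 in edgeR.

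In RNA (816 called, 219 lower, 597 higher), 1 model over 12 libraries called 355, 71 lower and 284 higher. Lower calls were 139 with no low-count filter and 364 with upper quartile scaling. With each pool left out 263 to 789 were called, 57 to 160 lower and 206 to 668 higher. In footprints (35 called, 22 lower, 13 higher), DESeq2 called 185, 84 lower and 101 higher, 1 model 100, 56 lower and 44 higher, and upper quartile scaling 60, 39 lower and 21 higher. With each pool left out 0 to 86 were called, 0 to 34 lower and 0 to 57 higher. Without WT pool 2 none was called by edgeR, with 944 at an unadjusted p under 0.05. The causes were not tested. The 5′ UTR GC difference between top and bottom decile ranged from -0.23 to -0.16 over all alternatives. Footprint depth, with 7314972 to 14343750 counts, limits weakly expressed genes.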
